A study of Mus musculus with 4 samples.

Results

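The peaks described here are the sites of open chromatin that lie at, in or nearest to the 9 genes for protein arginine methyltransferases of the mouse, in tumour cells treated with a drug against type I enzymes of the same family. A peak was taken when its centre lay inside a listed gene or within 1 kb of an end of it, or when the nearest end of a protein-coding gene belonged to it. This gave 38 peaks of 97699 in the table, at 8 of the 9 genes, and Prmt8 had none. Of the 38 peaks, 32 counted as tested, and the other 6 were weak peaks listed with an adjusted p of 1.

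The enzymes transfer methyl groups from S-adenosylmethionine to arginine residues of histones, RNA-binding proteins and other substrates. Type I enzymes place asymmetric dimethyl marks, type II enzymes symmetric dimethyl marks, and the type III enzyme leaves a single methyl group. Prmt1 makes most of the asymmetric mark in cells and Prmt5 most of the symmetric mark. Prmt1, Prmt2, Prmt3, Carm1, Prmt6 and Prmt8 were counted as type I, Prmt5 and Prmt9 as type II and Prmt7 as type III.

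The inhibitor group held 2 libraries from MC38/gp100 cells given 1 µM GSK3368712, which blocks type I enzymes, for 5 days. The other group held 2 libraries from cells of that line given the solvent DMSO for as long. MC38 is a colon adenocarcinoma line of the mouse, and gp100 is a melanocyte antigen. Accessibility was read by ATAC-seq, in which a transposase cuts open DNA, and nothing in the labels tells whether both libraries of a condition were separate cultures, so p-values may measure technical spread alone. The authors' deposited table gives 1 mean per group and no value per library, so no spread within a group and no sequencing depth per library can be printed. Its normalised reads sum to 24524730 under GSK3368712 and 25913087 in DMSO. Levels below are group means in normalised reads per peak, and changes are log2 levels under GSK3368712 minus log2 levels in DMSO.

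Across the table, 6.59% of 74791 tested peaks passed an adjusted p of 0.05 from the authors' DESeq2 test, with 6.09% lower and 0.492% higher under the inhibitor, and 92.5% of those that passed were lower. That split was 81.3% with changes rescaled to the groups' summed reads and 83.2% after centring on the median change of -0.07. Among markers of the labelled tissue, 1 of 7 epithelial and intestinal genes had a gene-edge peak, meaning one centred within 1 kb of either gene end. This was Krt8, with 347 reads under GSK3368712 and 294 in DMSO, while Epcam, Cdh1, Krt18, Krt19, Cdx2 and Vil1 had none there. Gene-edge peaks of 4 of 5 blood cell genes were weak, with 38.3 to 71.0 reads under the inhibitor, and Ptprc had none. Of 4 stromal genes, Pecam1 and Pdgfra had none, Cdh5 had 75.6 reads under GSK3368712 and 77.2 in DMSO, and Col1a1 had 1600 under GSK3368712 and 1570 in DMSO. Pmel, the gene for gp100, had 1 such peak, the only one of 4 melanocyte genes, with 2540 reads under GSK3368712 and 2800 in DMSO. Ends of other genes near the marker peaks were not looked for, so a marker peak may belong to another gene. The part of these markers in the results was not tested.

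The start-site windows of 5 genes are printed, picked for the place of these genes in the results. Prmt1 and Prmt5 are the main enzymes of their types, Prmt3 held the only peak that passed, Prmt9 had the largest change at a gene edge, and Prmt8 had no peak. The peak of Prmt3 that passed lies outside the window of that gene. Each window is the first that the table lists for its gene, 1 of 2 in the case of Prmt8. It runs from 250 bases before to 50 bases after an annotated start and was taken from RefSeq for GRCm38.p6, 5′ to 3′ on the gene's strand. Capitals mark matches, on either strand, to 6 short motifs: the E-box CACGTG, the CRE TGACGTCA, the CCAAT box CCAAT bound by NF-Y, the ETS motif CCGGAA, the GC box GGGCGG bound by SP factors, and TGCGCA, the core of the NRF1 motif. The windows lie at chr7:44986371-44986670 on the minus strand for Prmt1, chr7:49778108-49778407 on the plus strand for Prmt3, chr6:127769106-127769405 on the minus strand for Prmt8, chr14:54517421-54517720 on the minus strand for Prmt5 and chr8:77549147-77549446 on the plus strand for Prmt9.
Prmt1: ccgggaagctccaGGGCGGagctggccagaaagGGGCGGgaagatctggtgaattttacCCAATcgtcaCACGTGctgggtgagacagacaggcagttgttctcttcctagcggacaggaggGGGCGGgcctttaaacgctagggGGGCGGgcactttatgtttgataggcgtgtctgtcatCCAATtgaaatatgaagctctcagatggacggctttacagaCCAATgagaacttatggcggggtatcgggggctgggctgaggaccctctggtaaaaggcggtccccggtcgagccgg
Prmt3: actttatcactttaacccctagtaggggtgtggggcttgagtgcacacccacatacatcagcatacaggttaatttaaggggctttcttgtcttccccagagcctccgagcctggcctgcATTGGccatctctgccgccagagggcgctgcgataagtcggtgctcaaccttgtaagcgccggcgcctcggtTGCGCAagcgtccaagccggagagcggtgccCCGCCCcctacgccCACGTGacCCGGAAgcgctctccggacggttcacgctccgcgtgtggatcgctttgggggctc
Prmt8: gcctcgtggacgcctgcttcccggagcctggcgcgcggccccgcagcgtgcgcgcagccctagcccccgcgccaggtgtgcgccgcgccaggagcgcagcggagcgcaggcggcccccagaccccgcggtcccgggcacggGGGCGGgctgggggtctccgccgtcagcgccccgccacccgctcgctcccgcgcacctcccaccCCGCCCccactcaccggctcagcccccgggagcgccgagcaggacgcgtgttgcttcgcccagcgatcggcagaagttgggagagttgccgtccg
Prmt5: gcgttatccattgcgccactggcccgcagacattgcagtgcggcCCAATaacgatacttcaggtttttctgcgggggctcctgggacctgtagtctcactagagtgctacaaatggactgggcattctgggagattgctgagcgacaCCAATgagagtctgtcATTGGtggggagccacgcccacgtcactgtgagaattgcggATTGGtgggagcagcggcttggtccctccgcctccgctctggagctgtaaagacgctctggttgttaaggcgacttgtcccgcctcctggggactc
Prmt9: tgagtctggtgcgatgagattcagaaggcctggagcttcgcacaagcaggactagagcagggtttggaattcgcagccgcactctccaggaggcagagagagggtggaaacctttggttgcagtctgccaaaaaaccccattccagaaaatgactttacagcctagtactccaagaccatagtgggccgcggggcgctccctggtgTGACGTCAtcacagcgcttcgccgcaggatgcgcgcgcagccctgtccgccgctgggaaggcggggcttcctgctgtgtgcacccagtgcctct

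A window was found for 8 of the 9 genes, and Carm1 had no entry. The windows of Prmt1, Prmt2, Prmt3, Prmt5, Prmt6, Prmt7 and Prmt9 lay wholly inside a peak, at 300 of 300 bases each, and that of Prmt8 shared 0 bases with any. Prmt8 was also the richest in G and C of the 8, at 79.0% against a median of 52.7% over all 32851 windows in the table. Prmt1 carried 4 GC boxes, 3 CCAAT boxes and an E-box 181 bases before its start. Prmt5 carried 4 CCAAT boxes and no other match. The E-box occurred in the windows of Prmt1 and Prmt3, 2 of 8, and in 7.15% of all windows, while the CRE of Prmt9, 44 bases before its start, was present in 1.79% of all windows. CCAAT and GGGCGG were found in 4 and 5 of the 8 windows, against 37.4% and 35.7% of all windows. CCGGAA and TGCGCA were found in 2 and 3 of the 8, against 14.9% and 7.76%. No match overlapped another, with 0 overlapping pairs in the 8 windows. A match gives letters only, and its absence says nothing of the factor.

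No peak at an end of an enzyme gene passed in either direction. All 8 genes with peaks had at least 1 gene-edge peak, 10 in all, and 0 of these passed, where 1.79% of all tested gene-edge peaks did. Changes at the 10 peaks ran from -0.12 to 0.26 with a median of 0.02, and the median over all tested gene-edge peaks was -0.03. At an unadjusted p under 0.05, 1 of the 10 counted, that of Prmt9, against 16.5% of all tested peaks at any position.

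Among the type I genes, Prmt1 had its main peak over the start site, at chr7:44986079-44987228. The authors' deposited table gives it 2520 reads under GSK3368712 and 2630 in DMSO, a log2 change of -0.06 with an adjusted p of 0.679. Another gene, Gm15545, also ends within 1 kb. The approximate 95% interval of the change, derived from its level, ran from -0.19 to 0.07. Among the 1000 tested peaks nearest to it in level, the smallest change that passed was 0.16. That is a minimum over peaks that passed, and a change of that size need not pass at this level. Rescaled to summed reads or centred on the median, the change had the other sign, at 0.02 and 0.01. A weaker edge peak of Prmt1, 744 bases inside the gene, had 180 reads under the inhibitor and 195 in DMSO.

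Carm1, a type I enzyme that coactivates transcription and methylates histone H3, had the strongest peak of the family at chr9:21545821-21546831, shared with an end of AB124611. Its means were 2840 reads under GSK3368712 and 2940 in DMSO, a change of -0.05 (adjusted p = 0.786, the authors' deposited table). The approximate interval was -0.17 to 0.07, and the sign turned under either rescaling, to 0.03 and 0.02. Its weaker edge peak had 221 reads under the inhibitor and 211 in DMSO. Prmt6, which methylates histone H3 in the nucleus, had 1070 reads under GSK3368712 and 1050 in DMSO at its edge, a change of 0.03 with an approximate interval of -0.15 to 0.21. Prmt2, which has weak activity of its own, had 750 reads under the inhibitor and 680 in DMSO, and Prmt3, a cytosolic enzyme that acts on a ribosomal protein, had 541 under the inhibitor and 491 in DMSO. Both changes were 0.14, and the authors' deposited table lists adjusted p-values of 0.589 and 0.672.

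Of the type II and III genes, Prmt5 had equal rounded means at its edge, 2610 reads in each group. The approximate interval of the change was -0.13 to 0.13. Its peak, at chr14:54517136-54517904, also has a transfer RNA gene ending within 1 kb. Prmt9, which methylates a splicing factor, had 832 reads under GSK3368712 and 695 in DMSO at chr8:77548976-77549811. The change of 0.26 was the highest at any member's edge and above 95% of all tested gene-edge peaks, but it did not pass (adjusted p = 0.214, the authors' deposited table). Prmt7 had 2300 reads under the inhibitor and 2450 in DMSO, a change of -0.09 with an approximate interval of -0.22 to 0.04. That peak, at chr8:106210016-106211514, lies closer to an end of Slc7a6os and inside that gene, so its reads cannot be given to 1 gene.

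**Figure D1:**
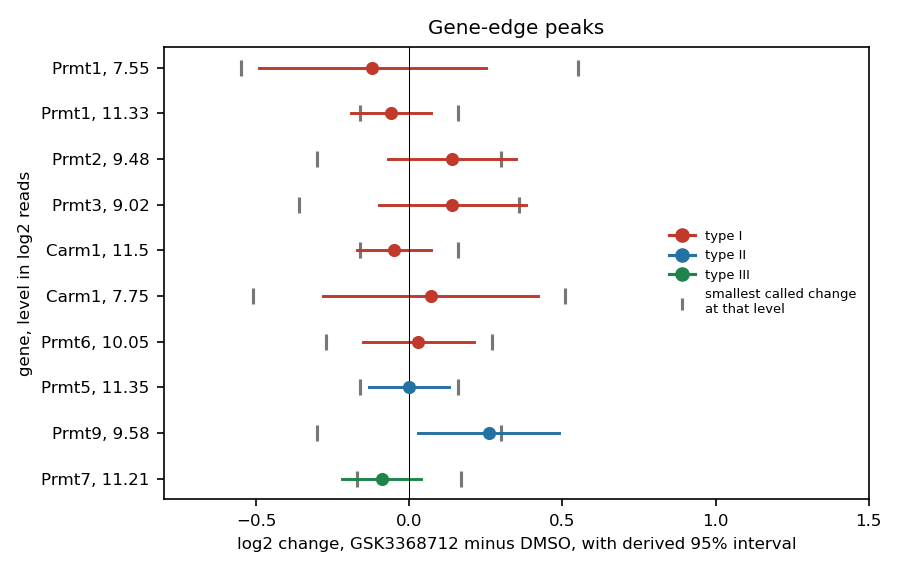
Log2 change under GSK3368712 minus DMSO (horizontal axis) at the 10 gene-edge peaks, each labelled with its gene and its level in log2 normalised reads. Bars are approximate 95% intervals derived from the authors' p-values or, for changes under 0.1 in size, from tested peaks of like level, and grey ticks mark the smallest change that passed at that level. The intervals of 9 peaks cross 0 and that of Prmt9 runs from 0.03 to 0.49.

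Per kilobase of peak, the main edge peaks of the 8 genes differed in level by several-fold, and their order was the same in both groups. The density over both groups was 3390 reads per kb at Prmt5, 2860 at Carm1, 2240 at Prmt1 and 1580 at Prmt7. It was 916 reads per kb at Prmt9, 756 at Prmt2, 713 at Prmt6 and 502 at Prmt3. Without values per library, neighbours in this order cannot be told apart by their spread. In level per peak, those of Carm1, Prmt5, Prmt1 and Prmt7 stood above 97.9%, 97.0%, 96.9% and 95.8% of all tested gene-edge peaks, and that of Prmt3 above 43.4%. The peaks of Carm1, Prmt5, Prmt1 and Prmt7 also have an end of another gene within 1 kb, so their reads cannot be given to those genes alone. The main edge peaks of Prmt9, Prmt2, Prmt6 and Prmt3 have no such end nearby.

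Prmt8, known as a methyltransferase of neurons, stood apart from the other members in having no site called open. No peak lay in its 80.5 kb, at chr6:127689009-127769467, or within 1 kb of its ends, and the closest peak began 47.2 kb away. That peak had 90.5 reads under GSK3368712 and 91.8 in DMSO and was assigned to Cracr2a. The table lists called peaks only, so accessibility of Prmt8 below the calling limit of either group cannot be read from it.

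**Figure D2:**
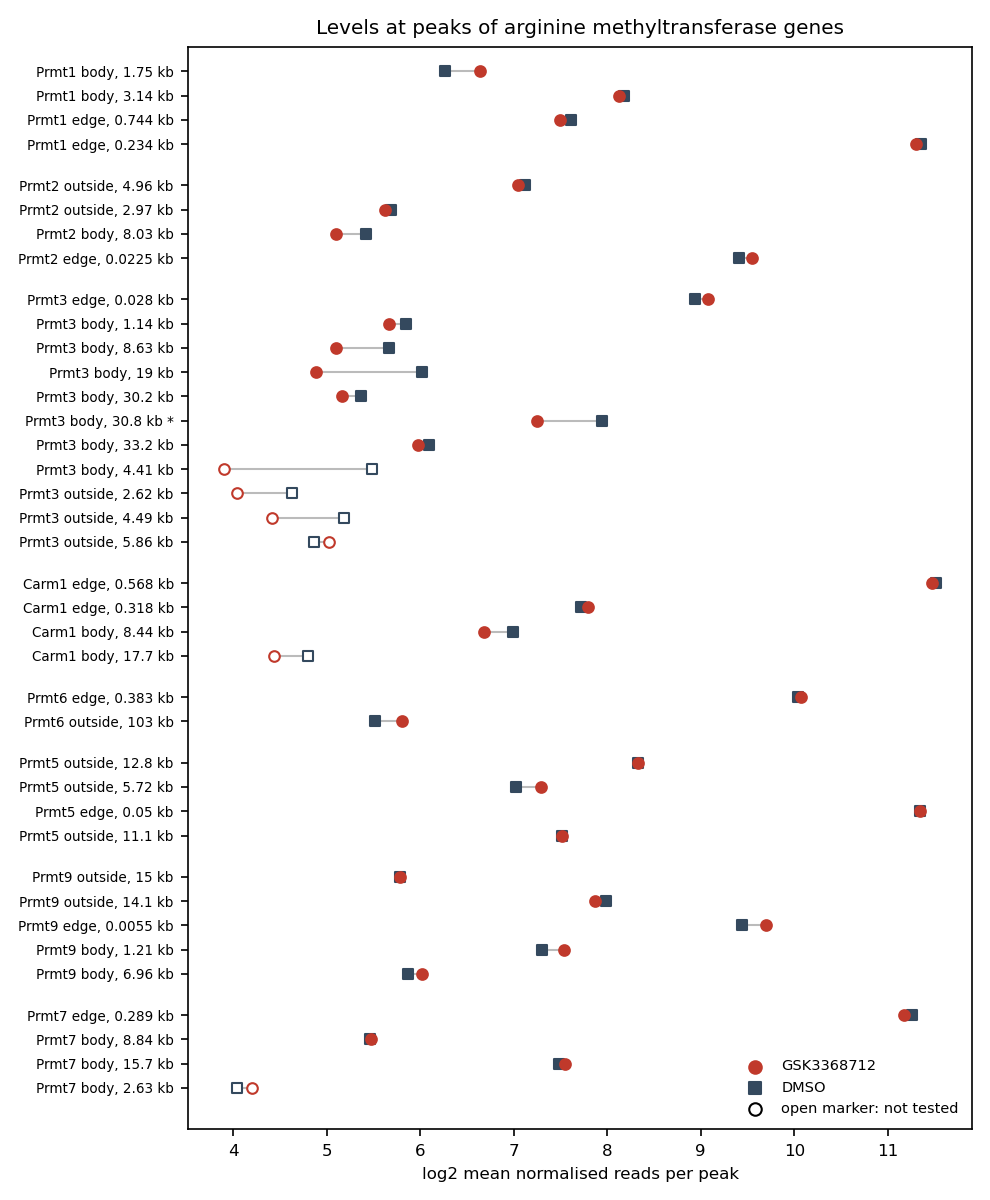
Log2 mean normalised reads under GSK3368712 (red circles) and in DMSO (dark squares) at the 38 peaks, each named by gene, position and distance to the nearer gene end, and grouped by gene. Open markers were not tested, the asterisk marks the peak of Prmt3 that passed, and the longest bars all belong to Prmt3.

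Inside and beyond the genes, 1 peak of Prmt3 was lower under the inhibitor and no other tested peak of the family passed. This made 1 of 32 tested peaks, or 3.12%, against 6.59% over all tested peaks, a share that rests on 1 peak. By position, 1 of 14 peaks within gene bodies passed, where 7.15% of all tested gene-body peaks did, and 0 of 8 peaks outside the genes passed, where 8.04% of all tested intergenic peaks did. An unadjusted p under 0.05 was found at 3 of the 32 tested peaks, against 16.5% of all tested peaks. These were the peaks of Prmt3 at 19.0 and 30.8 kb from its nearer end and the edge of Prmt9.

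Prmt3 spans chr7:49778319-49861264 on the plus strand, and the lower peak lies inside it, 30.8 kb from its start, at chr7:49808744-49809550. Exons and introns were not analysed here. It had 152 reads under GSK3368712 and 246 in DMSO in the authors' deposited table, a log2 change of -0.69, or a ratio of 0.62, with an adjusted p of 0.00991. The approximate interval of the change was -1.07 to -0.31. The peak was called in 2 of 2 libraries of each group, and it passed under both rescalings, at adjusted p-values of 0.04 and 0.0345. The start-site peak of the same gene, whose window is printed above, did not pass and had a change of the other sign, 0.14.

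Other peaks of Prmt3 were weak and mostly had lower means under the inhibitor. Of its 7 tested peaks, 6 had a lower mean under GSK3368712, against 62.3% of all tested peaks, and the median change of the 7 was -0.21. A peak 19.0 kb into the gene had 29.4 reads under the inhibitor and 64.9 in DMSO, a change of -1.14 that missed the threshold (adjusted p = 0.0624, the authors' deposited table). A peak 8.63 kb into the gene had 34.3 reads under the inhibitor and 50.9 in DMSO, a change of -0.57 with an approximate interval of -1.33 to 0.19. At levels like those of this pair, changes below 1.14 did not pass anywhere among the 1000 nearest peaks, so smaller differences were not detectable there. The 3 remaining tested peaks inside Prmt3 ran from -0.21 to -0.11, with 35.8 to 63.1 reads under the inhibitor and 41.4 to 68.1 in DMSO.

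Towards the far end of Prmt3 lay 4 weak peaks listed with an adjusted p of 1, which count as not tested. Of these, 3 were called in 0 of 2 libraries under GSK3368712 and in 2 of 2 in DMSO. Such peaks entered the table through DMSO alone, and the 5436 of them among all peaks had a median change of -0.69, so their lower means are not a result about Prmt3. The peak inside the gene, 4.41 kb from that end, had 14.9 reads under the inhibitor and 44.6 in DMSO, a change of -1.58. With p-values adjusted over all 97699 peaks and no level filter, its adjusted p was 0.0353, which would make 2 peaks of the family that pass, the second one chosen by the calls in DMSO. The peaks 2.62 and 4.49 kb past the end had 16.4 and 21.3 reads under the inhibitor, against 24.8 and 36.3 in DMSO. The outermost peak, 5.86 kb away, was called more often under the inhibitor and had 32.4 reads there, against 29.0 in DMSO.

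Around Prmt3, lower and higher peaks both occurred at the neighbouring genes. Within 300 kb on either side of its start, 22 peaks belonged to other genes, of which 20 were tested, with 1 lower, 1 higher and a median change of -0.12. Inside Nav2, 2 weak peaks that did not pass had 28.4 and 38.9 reads under the inhibitor, against 58.5 and 77.7 in DMSO, and the first had a change of -1.04, close to that of the Prmt3 peak at -1.14. The lower peak, assigned to Slc6a5, a glycine transporter gene, had 729 reads under GSK3368712 and 942 in DMSO. The higher peak, inside Nav2, had 367 reads under the inhibitor and 226 in DMSO. Peaks of Htatip2, which ends next to Prmt3, ran from -0.23 to 0.18, and 0 of 7 passed. On chromosome 7 as a whole, 4.47% of 4114 tested peaks were lower.

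**Figure D3:**
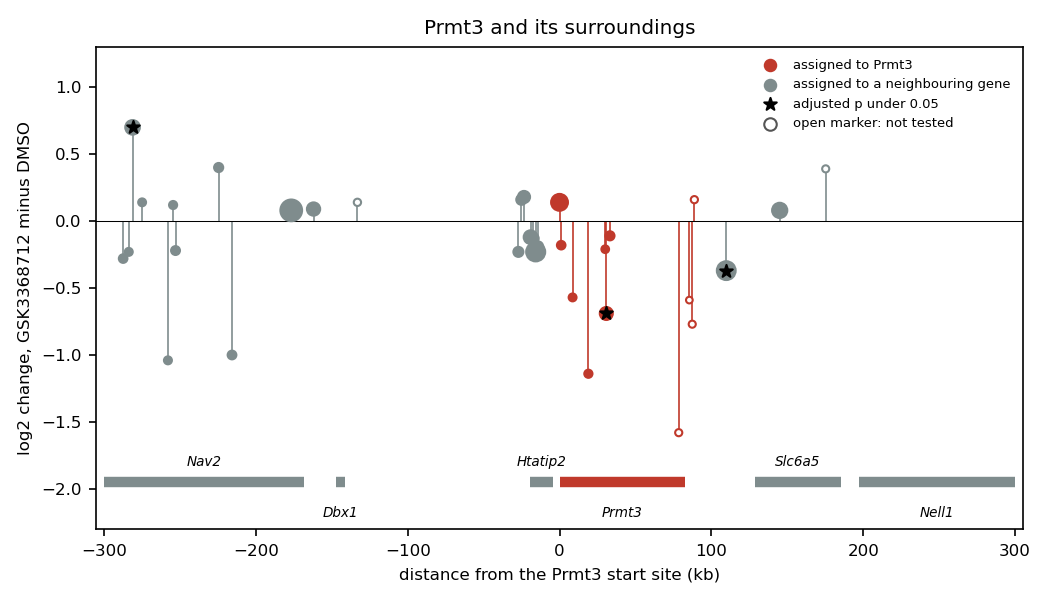
Log2 change under GSK3368712 minus DMSO (vertical axis) at peaks within 300 kb of the Prmt3 start site (horizontal axis, kb), in red for peaks assigned to Prmt3 and in grey for those of its neighbours, with markers that grow with level. Stars mark peaks past an adjusted p of 0.05, open markers were not tested, and bars at the foot are genes. The start-site peak of Prmt3 sits at 0.14 and the deepest of its peaks at -1.58.

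No peak of the remaining genes passed away from their edges. Prmt1 had a peak 1.75 kb inside its far end with 99.7 reads under the inhibitor and 76.6 in DMSO, a change of 0.38, the highest of the 32 tested peaks (adjusted p = 0.574, the authors' deposited table). Its other inner peak had 280 reads under the inhibitor and 290 in DMSO. A peak inside Carm1 had 103 reads under the inhibitor and 127 in DMSO, and one inside Prmt2 had 34.3 under the inhibitor and 42.8 in DMSO. Their changes were -0.31 and -0.32, and the authors' deposited table lists adjusted p-values of 0.638 and 0.825. Past the far end of Prmt2, peaks at 4.96 and 2.97 kb both had -0.07, and a weak peak of Carm1 that was not tested had -0.37. The only other peak given to Prmt6 lay 103 kb away and had 55.7 reads under the inhibitor and 45.6 in DMSO, a change of 0.29.

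Away from the edges, tested peaks of the type II and III genes ran from -0.12 to 0.27. Outside Prmt5, the peaks 12.8 and 11.1 kb from its ends had equal means as rounded, with 322 and 184 reads in each group. Another, 5.72 kb away, had 156 reads under the inhibitor and 130 in DMSO. Of the 5 peaks of Prmt9, those at 1.21 and 6.96 kb inside the gene had 0.24 and 0.15, and a pair upstream had 0.00 and -0.12. The 2 tested peaks inside Prmt7 had 0.01 and 0.07. The adjusted p-values of all of these were above 0.6 in the authors' deposited table. Another peak inside Prmt7, not tested, had 18.4 reads under the inhibitor and 16.4 in DMSO.

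Set against each other, type I genes had 1 lower peak among 20 tested and the type II and III genes 0 among 12, where 6.09% of all tested peaks were lower, so neither count stands away from that share. The median change was -0.07 over type I peaks, the same as over all tested peaks, and 0.00 over type II and III peaks, a difference of -0.08 before the medians are rounded. Type I peaks had a lower mean under the inhibitor in 14 of 20 cases, against 2 of 12 for the other types. Another 4 of the 12 were equal in both groups only as rounded. Among these, the deposited fold, DMSO minus GSK3368712, was 0.01 at a peak of Prmt5 and -0.01 at a peak of Prmt9. The counts of lower peaks therefore depend on rounding. Over all tested peaks, 62.3% had a lower mean. Prmt3 alone gave 7 of the 20 type I peaks, and without it the median of the type I peaks was -0.05, with 8 of 13 lower. At gene edges the order turned, with medians of 0.03 for type I and 0.00 for the other types. In gene bodies the medians were -0.26 over 10 peaks of type I, most of them of Prmt3, and 0.11 over 4 peaks of the other types. Over all tested gene-body peaks the median was -0.09. Type I peaks were also weaker, with a median log2 level of 6.96 against 7.52 for the other types, and low peaks carry more error. No test was made of the difference between the types, since peaks of 1 gene are not replicates.

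**Figure D4:**
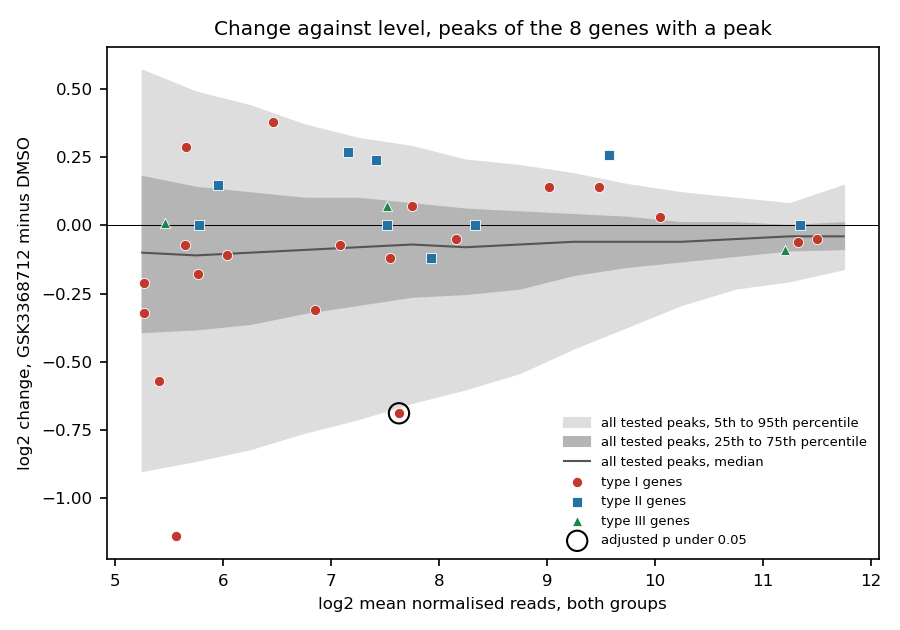
Log2 change under GSK3368712 minus DMSO (vertical axis) against log2 mean level over both groups (horizontal axis) for the 32 tested member peaks, coloured by enzyme type, over the percentile bands of all tested peaks. The circled peak of Prmt3 lies at -0.69, and the peak at -1.14, also of Prmt3, did not pass.

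Genes that work with the enzymes had 22 lower peaks and 2 higher ones, none of them at a gene end. Of 23 such genes in 4 lists, 8 had a lower peak and 2 a higher one. A gene with more tested peaks has more chances of one, and Mtap had 29. The share over all genes was not computed, so these counts are not a result about the genes. Of their 171 tested peaks, 24 passed, or 14%, against 6.59% over all tested peaks. The lists were chosen with earlier results of these data known, so this share is not a test of the genes as a set. Among the lower peaks, a peak of Snd1 and a peak of Smndc1 entered the table through DMSO alone, as given below. The peaks that passed were uneven among genes, with 5 each at Btg1, Ddah1 and Mtap. Leaving out those 3 genes, chosen after their values were seen, 9 of 101 passed, or 8.91%. At gene edges 0 of 24 tested peaks passed in the authors' DESeq2 test, where 1.79% of all tested gene-edge peaks passed. An unadjusted p under 0.05 from that test was found at 3 of the 24, against 16.5% of all tested peaks at any position. In gene bodies 6 of 60 passed, or 10%, against 7.15% of all such peaks. Outside the genes 18 of 87 passed, or 20.7%, against 8.04% of all tested intergenic peaks. Intergenic peaks lie outside every protein-coding gene, whereas the 87 lie outside their listed gene only. A peak of Jmjd6 inside Mettl23 is among them, so these shares are not of like sets. Rescaled to summed reads, 15 peaks passed, 14 of them among the 24, and centred on the median 17 passed, 16 of them among the 24. The peak gained under both was a gene-edge peak of Btg2, with 165 reads under GSK3368712 and 105 in DMSO (adjusted p = 0.0502, the authors' deposited table, and 0.0282 and 0.0304 when rescaled). It was called in 2 libraries under GSK3368712 and 0 in DMSO, so it entered the table through GSK3368712 alone. The 2332 peaks of that kind had a median change of 0.58, so its higher mean is not a result about Btg2.

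Partners and regulators of the enzymes had 5 lower peaks among 42 tested, where 6.09% of all tested peaks were lower. All 5 were assigned to Btg1, whose product binds PRMT1. They lay from 10.1 to 279 kb from the gene, with changes from -1.23 to -0.51. The one at 207 kb had 42.5 reads under GSK3368712 and 99.7 in DMSO (adjusted p = 0.00356, the authors' deposited table). An end of another gene, Gm20091, lies within 1 kb of that peak, and the one at 279 kb lies inside Gm33782. The edge peak of Btg1 had 2340 reads under the inhibitor and 2390 in DMSO. Under both rescalings 2 of the 5 no longer passed, and with summed reads 1 more. Wdr77 and Clns1a, which form complexes with PRMT5, Riok1 and Coprs, which also bind it, and Rps2, Epb41l3 and Btg2 had no peak that passed as deposited.

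Readers of methylated arginine had 4 lower peaks and 1 higher peak among 42 tested, against 6.09% lower and 0.492% higher over all tested peaks. Snd1, a Tudor domain coactivator, had both kinds. A peak 2.60 kb inside an end of Snd1 had 71.0 reads under GSK3368712 and 161 in DMSO, a change of -1.18 (adjusted p = 8.19e-05, the authors' deposited table). Another, 225 kb inside and closer to an end of Lrrc4, had 30.5 under the inhibitor and 71.5 in DMSO. The higher peak, 17.3 kb inside, had 208 reads under the inhibitor and 133 in DMSO. Smndc1, a splicing factor with a Tudor domain, had lower peaks 4.35 and 43.5 kb away, with -0.85 and -0.51, of which the farther did not pass when rescaled. The peak 2.60 kb inside Snd1 and the one 4.35 kb from Smndc1 were called in 0 libraries under GSK3368712 and 2 in DMSO. Both entered the table through DMSO alone, so their lower means are not a result about these genes. The edge peak of Snd1 had 2350 reads under the inhibitor and 2570 in DMSO. Tdrd3, its partner Top3b, Smn1 and Tdrkh had no peak that passed.

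Enzymes that act on methylarginine or on arginine residues had 7 lower peaks and 1 higher peak among 33 tested. The shares over all tested peaks were 6.09% lower and 0.492% higher. Ddah1, which degrades asymmetric dimethylarginine, had 5 of the 7 lower peaks, among 18 tested. The lowest changes in the 4 lists lay 44.5 and 39.2 kb from Ddah1. The first had 36.0 reads under GSK3368712 and 116 in DMSO, a change of -1.69 (adjusted p = 3.46e-05, the authors' deposited table), and the second 50.2 under the inhibitor and 153 in DMSO. The other 3 ran from -0.75 to -0.49. Its edge peak had 478 reads under the inhibitor and 431 in DMSO and did not pass. Padi2 and Padi4, which convert arginine to citrulline in proteins, had 1 lower peak each, with -0.44 and -0.68, neither of which passed when rescaled. A peak near Jmjd6, an oxygenase, and inside Mettl23 was higher, with 1330 reads under the inhibitor and 1090 in DMSO. The main edge peak of Jmjd6, which lies closer to an end of Mettl23, had 4540 under the inhibitor and 4480 in DMSO. Ddah2 had no peak that passed.

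Genes that supply or recycle the methyl donor had 6 lower peaks and 0 higher ones among 54 tested. The shares over all tested peaks were 6.09% lower and 0.492% higher, so 0 higher among 54 says little. Mtap, which clears methylthioadenosine, an inhibitor of PRMT5, had 5 of the 6 lower peaks. They lay 13.6 to 98.4 kb from the gene, with changes from -0.78 to -0.47. Mat2a, which makes S-adenosylmethionine, had 1, with 949 reads under GSK3368712 and 1180 in DMSO. Neither that peak nor 2 of the 5 of Mtap passed when rescaled, and with summed reads 1 more of Mtap did not. The Mtap peaks at 81.2 and 75.7 kb lay inside another gene, Wincr1, and the one at 13.6 kb inside Gm12602. The edge peaks of Mtap, Mat2a and Ahcy had 815, 2740 and 1820 reads under the inhibitor, against 904, 2920 and 1870 in DMSO, and none passed. Those of Mat2a and Ahcy also have an end of another gene within 1 kb. Mat2b had no peak that passed.

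**Figure D5:**
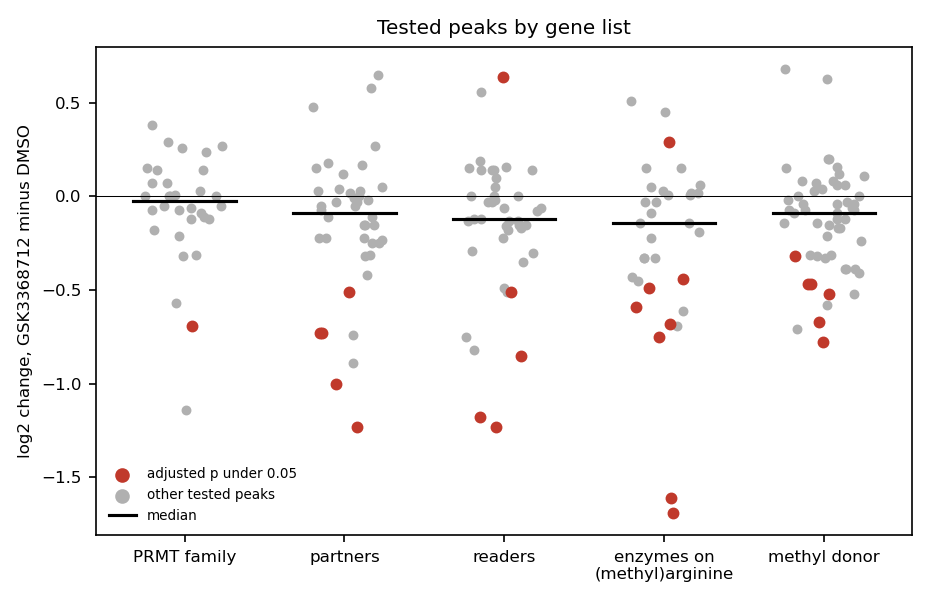
Log2 change under GSK3368712 minus DMSO (vertical axis) at every tested peak of the methyltransferase family and of the 4 lists of genes that work with it, with peaks past an adjusted p of 0.05 in red and the median as a bar. The family has 1 red point among 32, and the 4 lists have 24 among 171, with medians of -0.02 for the family and from -0.14 to -0.09 for the lists.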

How the data were processed

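ATAC-seq libraries of 2 GSK3368712 and 2 DMSO samples were compared by the authors. For the authors' work, the submitters' processing notes name DESeq2, DiffBind 2.8.0, MACS2 2.1.1.20160309, Picard 1.113 and HISAT2 2.1.0, with mm10 as the build. No source used here gives the authors' settings, the version of DESeq2 or any shift of reads for the transposase. The deposited table holds log2 group means of normalised reads, a log2 fold, a p-value and an adjusted p-value, per the file headers, and the number of libraries in which each peak was called. The 2 call columns carry no group names and were matched to groups by their order. Of 2332 peaks so read as called in both GSK3368712 and no DMSO libraries, 95.1% had the higher mean under GSK3368712, against 4.73% of 5436 peaks of the opposite kind. Depth is unknown.

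Changes were computed as the difference of the deposited log2 levels and differ from the deposited fold by at most 0.01. Peaks with a deposited adjusted p under 1 counted as tested, all at log2 levels of 5.16 or more, and those under 0.05 as passing. A standard error was derived as change over z of the authors' p-value, or, for changes under 0.1 in size, as the median of the 500 peaks nearest in level. It assumes a normal test statistic. Gene ends came from RefSeq for GRCm38.p6, the assembly behind mm10, and all listed symbols matched. Calculations used Python 3.11.15, numpy 2.4.6, pandas 2.3.3 and scipy 1.17.1. The text names every gene-edge peak of the family and every peak of it that passed, then the extremes and the strongest peak per gene, and, of the lists, the genes with a peak that passed and the strongest gene-edge peak. The members and lists were chosen with earlier results of these data known. A stricter threshold, a minimum change, 2 rescalings, no level filter and other assignments were tried.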

Additional observations from a re-analysis of the deposited data

How the results depend on the processing

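No paired analysis was possible because the deposited table holds group means only, and no library could be left out for that reason. Over all peaks, 2781 passed at an adjusted p of 0.01, 2608 of them lower and 173 higher. With at least 1 log2 unit 1060 passed, 982 lower and 78 higher. Rescaling to summed reads gave 2701 lower and 620 higher, and centring on the median gave 2849 lower and 576 higher. The peaks of the family that passed numbered 0 with at least 1 log2 unit, 2 with no level filter and 0 without Prmt3, a choice made after seeing the data, and 1 under the other settings run. For partner and pathway genes the count was 14 at 0.01, 6 with at least 1 log2 unit and 15 with summed reads. The stricter rules ask for more by construction, and the cause of the other moves was not tested. The main edge peaks of Carm1 and Prmt1 turned sign, to 0.03 and 0.02 with summed reads and to 0.02 and 0.01 after centring, and did not pass in any setting run. Of the 25 peaks that passed in the family and the lists, 10 no longer passed at 0.01, 19 with at least 1 log2 unit, 10 with summed reads, 8 after centring and 2 with no level filter. The difference between type I and the other types was -0.08 and ran from -0.13 to -0.06 in the other settings run, except at gene edges, where it was 0.03. Weak peaks limit the reading of Prmt3, where only large changes could pass.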
